A study of Mus musculus with 8 samples.

Results

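The miRNA content of cardiotoxin-injured mouse muscle was compared between day 2 (D2) and day 4 (D4) after injury in 4 of the 8 RNA pools of a study of neurogenic heterotopic ossification (NHO), the growth of bone in muscle after damage to the central nervous system. The 4 pools are 2 taken at D2, one after each surgery (CDTX + SCI, CDTX + SHAM), and the same 2 at D4, each made of gastrocnemius RNA of 3 muscles by the labels, so that each combination of surgery and day is 1 pool. The mice were female C57Bl/6, by the methods 6 to 8 weeks old. SCI is a transection of the spinal cord at the level of the lower thoracic vertebrae, and SHAM is the control surgery. CDTX is cardiotoxin injected into the left gastrocnemius at 12 µM, and the right gastrocnemius received PBS. All 4 CDTX pools therefore share the muscle injury, and the CDTX + SCI pools are the ones that develop NHOs in this model. The PBS pools of the same surgeries and days served as the background of a 2-day interval without the toxin. Since the mice behind each pool are not named in the labels, a CDTX pool and a PBS pool may come from the same animals.

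Cardiotoxin is a snake venom peptide that lyses muscle fibers and leaves most of the muscle stem cells in place. In the first days dead fibers are cleared by neutrophils and then macrophages, after which muscle stem cells divide, differentiate and fuse into new fibers while fibro-adipogenic progenitors and vessels remodel around them. miRNAs are short RNAs that lower the translation and stability of mRNAs, which they find mainly through the seed, bases 2 to 8 from the 5′ end. Some are restricted to 1 lineage, such as miR-1 and miR-133 in striated muscle, miR-223 in myeloid cells and miR-126 in endothelium, so that in whole muscle their levels follow both cell content and expression. In bulk RNA, fewer cells of a type and less of a miRNA per cell cannot be told apart.

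Measurements were quantification cycles (Cp) of RT-qPCR assays with LNA primers, where each cycle less corresponds to about a doubling of the template. The panels held 755 assays, of which 752 were of a miRNA, and after 1 assay was chosen per name 688 miRNAs were left. A miRNA was taken as detected at a Cp of at most 32. By this rule 145 miRNAs were detected at D2 after SHAM and 142 after SCI, against 164 and 165 at D4. In all 4 CDTX pools 129 miRNAs were detected. Levels are given on a log2 scale as the Cp of a miRNA subtracted from the average Cp of 3 reference miRNAs (miR-125b-5p, miR-24-3p and miR-23b-3p), and a log2 ratio is the level at D4 minus that at D2 within 1 surgery. The mean Cp of the 3 references was 25.54 and 25.51 at D2 and 25.61 and 25.22 at D4. Here and below, where 2 values are given for a day, the first is that of the CDTX + SHAM pool and the second that of the CDTX + SCI pool. The label of the tissue was checked against its markers, and the miRNA with the earliest Cp was a striated muscle miRNA in every CDTX pool, miR-133a-3p in both D2 pools and miR-133b in both D4 pools.

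The mature sequences of miRNAs that carry the results are shown here with the seed in capitals, as held by RefSeq for GRCm38.p6, where 22 of the 27 miRNAs called below had an entry. The first were higher at D4, namely the muscle miRNA miR-206, miR-31-5p, miR-34a-5p, and miRNAs that the Dnm3os and Clcn5 host transcripts carry.
miR-206: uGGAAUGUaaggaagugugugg
miR-31-5p: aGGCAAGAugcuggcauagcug
miR-34a-5p: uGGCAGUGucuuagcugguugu
miR-199a-5p: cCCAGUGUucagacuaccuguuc
miR-199a-3p: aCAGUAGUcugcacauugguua
miR-214-3p: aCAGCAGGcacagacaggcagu
miR-214-5p: uGCCUGUCuacacuugcugugc
miR-532-3p: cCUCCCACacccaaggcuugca
miR-362-3p: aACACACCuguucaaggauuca
The 9 seeds all differ, also between the 2 arms of miR-199a and of miR-214, so that the miRNAs shown for a host transcript do not share a seed. Both arms of miR-199a match loci on chromosomes 1 and 9, whereas both arms of miR-214 match chromosome 1 alone. The assays cannot tell from which locus miR-199a came.

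The next were called lower at D4, except miR-30e-5p, which was not called (ratio -0.50, adjusted p = 0.287) and is shown because miR-30a-5p and miR-30c-5p share its seed. The others have seeds of their own.
miR-126-3p: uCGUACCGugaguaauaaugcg
miR-10b-5p: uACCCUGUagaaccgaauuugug
miR-338-3p: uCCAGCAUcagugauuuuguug
miR-223-3p: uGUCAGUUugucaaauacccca
miR-30a-5p: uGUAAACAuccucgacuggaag
miR-30c-5p: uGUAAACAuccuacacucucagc
miR-30e-5p: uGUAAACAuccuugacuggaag
The last 4 passed the detection limit at D4 only, or in a single D2 pool in the case of miR-351-5p. The seeds of miR-503-5p and of the miR-15/16 family differ in their last base alone, as the sequence of miR-322-5p shows, whose seed is that of miR-15a-5p, miR-16-5p and miR-195-5p.
miR-298-5p: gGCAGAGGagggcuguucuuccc
miR-188-5p: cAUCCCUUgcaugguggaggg
miR-503-5p: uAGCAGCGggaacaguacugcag
miR-351-5p: uCCCUGAGgagcccuuugagccug
miR-322-5p: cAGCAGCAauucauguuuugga

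From D2 to D4 after CDTX, miR-206 of regenerating muscle, miR-31-5p, miR-34a-5p and every measured miRNA of the Dnm3os and Clcn5 lists rose, while miR-126-3p of endothelium, miR-150-5p of lymphocytes, miR-223-3p of myeloid cells and 2 of the miR-30 family fell. The other 5 of 7 measured leukocyte miRNAs were not called. Among them miR-146a-5p and miR-342-3p had positive ratios in both pairs and miR-146b-5p negative ones. With limma over the 4 CDTX pools (surgery as a block, adjusted p under 0.05 over 129 miRNAs), 19 miRNAs were higher at D4, which is 14.7% of those tested, and 8 were lower, which is 6.2%. At least 2-fold changes in both surgery pairs were found for 6 miRNAs in the upward direction (4.65% of 129) and for 3 in the downward direction (2.33%). The 6 were miR-206, miR-31-5p, miR-34a-5p, miR-532-5p, miR-199a-5p and miR-532-3p, and the 3 were miR-150-5p, miR-126-3p and miR-10b-5p. Over all 129 miRNAs the median log2 ratio was 0.20 in the SHAM pair and 0.04 in the SCI pair.

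These calls rest on 2 pools a day with no replicate pool, and a day change altered by SCI adds to an error shared by all miRNAs. The fit has 1 residual degree of freedom of its own, which is the disagreement between the SHAM and SCI ratios. The prior degrees of freedom were infinite, so the error of each miRNA was set by the trend over all miRNAs (SE between 0.29 and 0.40 on the log2 scale). A disagreement of the 2 pairs on 1 miRNA enters its own test only as 1 part of that trend. The calls were thus not penalised for it, and the small p-values rest on the shared trend. For miR-1-3p, whose pairs disagreed, the SE was 0.31, where the median was 0.32. An exact permutation test of 2 against 2 cannot give a two-sided p below 0.333. Of the 27 called miRNAs, 26 changed in the same direction in both pairs, and the exception, miR-1-3p, is described below. In a fit of all 8 pools with CDTX + SHAM D2 left out, which leaves the SCI pair alone for the day ratio, 6 miRNAs were higher and 9 lower, and 10 of the 27 calls remained. These 10 were miR-206, miR-34a-5p, miR-532-5p, miR-199a-5p and miR-149-5p among the higher and miR-150-5p, miR-126-3p, miR-145-5p, miR-30a-5p and miR-30c-5p among the lower. Without CDTX + SHAM D4, 9 remained, the same without miR-199a-5p. With a CDTX pool left out, the error comes from the PBS pools alone and is assumed to hold for CDTX. The calls that remain, here and in the lists below, are therefore not backed by replicate CDTX pools. miR-31-5p could not be tested in the 8-pool fits because its Cp exceeded 32 after PBS.

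**Figure D1:**
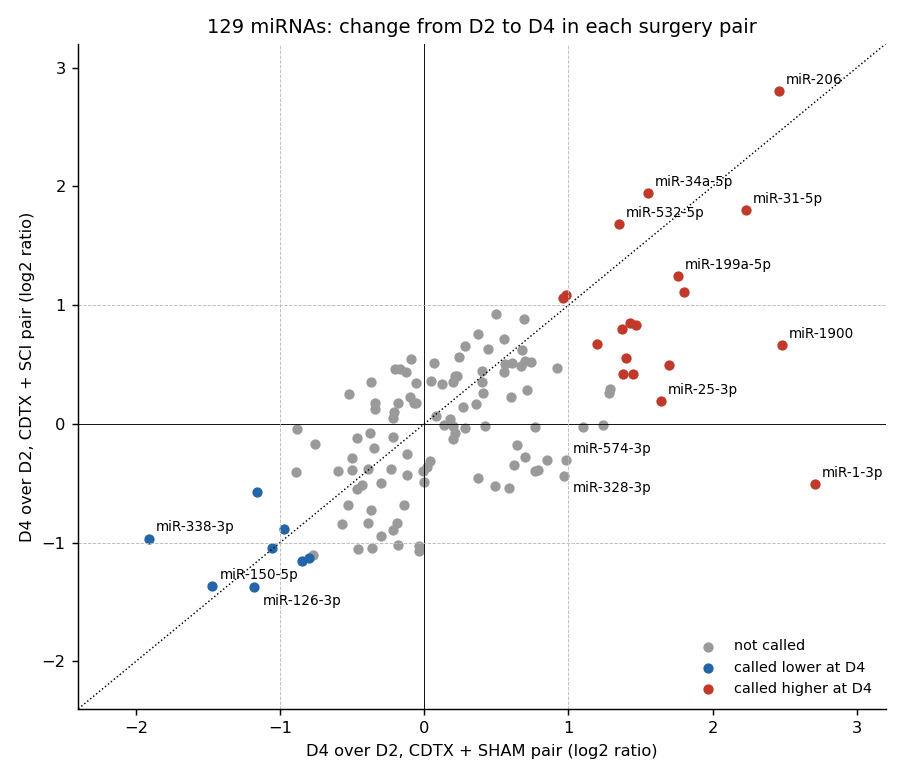
Log2 ratio of D4 over D2 in the CDTX + SHAM pair (horizontal axis) and in the CDTX + SCI pair (vertical axis) for 129 miRNAs. Each point is 1 miRNA, colours mark the limma calls, dashed lines stand at 2-fold and the dotted line at equal ratios. Most called miRNAs lie in the quadrants where both pairs moved alike, and miR-1-3p lies at 2.71 and -0.51.

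The 2 pairs share no pool, and their ratios had a Pearson correlation of 0.67 and a Spearman correlation of 0.65 across the 129 miRNAs, given as a description, since all assays of a pool share its RNA and its reference Cp. The sign was the same in both pairs for 90 of 129 miRNAs. The ratios of 1 miRNA differed between the pairs by 0.67 (root mean square). Second assays of the same miRNA, where both were detected in all 4 pools, gave mean ratios that differed by 0.17 over 6 miRNAs. The 0.17 is of averages over the 2 pairs, so it cannot be set against the 0.67 of single pairs. For miR-532-5p the first assay gave 1.35 in SHAM and 1.68 in SCI, and the second 1.72 and 1.08. For miR-143-3p the 2 assays were closer, at -0.57 and -0.85 and at -0.50 and -0.79. In the PBS pools the SD of the ratios across miRNAs was 0.31 for SHAM and 0.28 for SCI, and over the same 116 miRNAs it was 0.83 and 0.70 after CDTX.

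miR-206, which is expressed in myoblasts and newly formed fibers, showed the highest rise of the 129. Its level was -0.44 and -0.96 at D2, and 2.02 and 1.85 at D4. Both D4 pools stood far above both D2 pools and also above the PBS pools, which lay between 0.49 and 0.91, whereas both D2 pools stood below them. The mean log2 ratio was 2.63 ± 0.30 (SE), or 6.20-fold, with an adjusted p of 1.01e-12.

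Among miRNAs of the mature fiber only miR-1-3p was called. miR-133a-3p had levels of 2.96 and 3.22 at D2 and of 2.66 and 2.73 at D4, a mean log2 ratio of -0.40 (95% CI -1.07 to 0.28). miR-133b, transcribed with miR-206 from 1 locus, had 2.77 and 3.07 at D2 and 3.19 and 3.06 at D4, a mean ratio of 0.20 (95% CI -0.48 to 0.88). The assays of miR-206 and miR-133b thus showed unequal ratios in both pairs. At D2 the levels of miR-133b lay close to those of miR-133a-3p, and whether its assay also reads miR-133a-3p was not tested. The ratio of miR-133b can therefore not be taken as the output of the locus alone. Of 6 fiber miRNAs measured, 1 was called higher (miR-1-3p) and none lower, against 14.7% higher and 6.2% lower over all tested. The other ratios lay between -0.55 for miR-378a-3p and 0.20 for miR-133b. The summed level of the 6 on a linear scale was 16.6 and 25.6 at D2 and 20.5 and 20.3 at D4, against 67.8 to 105 in the PBS pools. The sum of CDTX + SHAM D2 includes a low miR-1-3p value that stood apart, described next, so its rise to D4 in SHAM rests partly on that value.

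miR-1-3p, the most abundant miRNA of adult striated muscle, was called with a mean ratio of 1.10 (adjusted p = 0.00689 by limma), but the 2 pairs disagreed. Its level was -0.74 in CDTX + SHAM D2, 2.61 in CDTX + SCI D2, and 1.97 and 2.11 in the D4 pools. The first value alone stood apart, so that the ratio was 2.71 in the SHAM pair and -0.51 in the SCI pair. A second assay of miR-1-3p, whose Cp was beyond 32 in all CDTX pools, read 32.92 and 32.84 at D2 and 33.55 and 33.40 at D4, hence later at D4 in both pairs. The other assay thus showed no rise of miR-1-3p in either pair.

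miR-31-5p and miR-34a-5p rose next. miR-31-5p, which in mouse muscle stem cells is known to hold back Myf5 mRNA, had levels of -5.28 and -5.60 at D2 and of -3.05 and -3.79 at D4. All 4 values stood far above the PBS pools, where the Cp was beyond 32. The mean log2 ratio was 2.02 ± 0.34 (4.05-fold, adjusted p = 1.30e-06).

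miR-34a-5p, a target of p53 known for restraining the cell cycle, had levels of -4.71 and -5.36 at D2 and of -3.16 and -3.41 at D4. The D2 pools lay above the PBS pools (-6.30 to -5.71) by 1.16 for SHAM and 0.44 for SCI, and the D4 pools by 2.55 and 2.88. The mean ratio was 1.75 ± 0.33 (adjusted p = 2.00e-05). Its family member miR-34c-5p was detected at D4 only, at a Cp of 31.73 and 31.51 after 32.12 and 33.57.

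**Figure D2:**
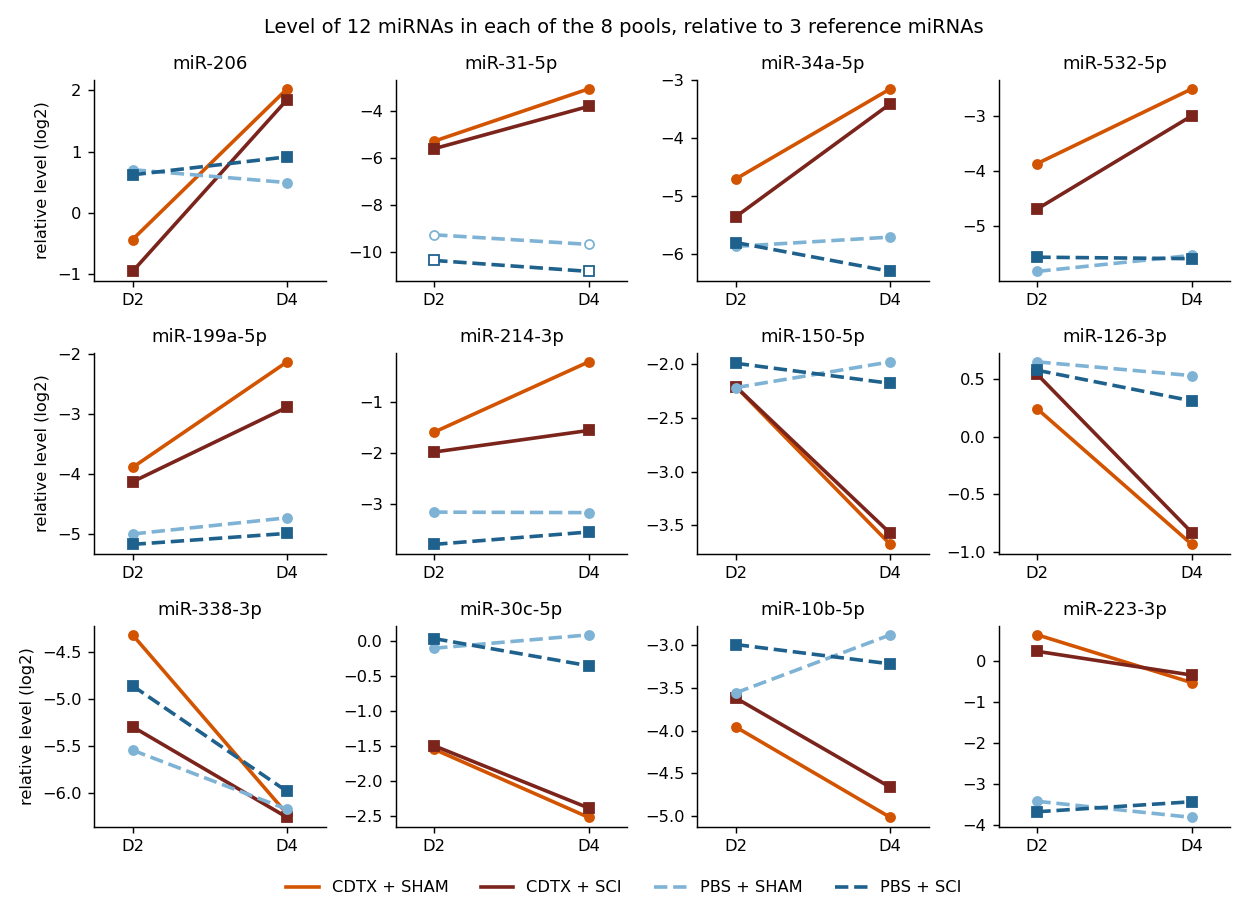
Level of 12 miRNAs on a log2 scale (mean Cp of the 3 references minus Cp, vertical axes of different range) at D2 and D4. Each point is 1 pool, full lines are CDTX and dashed lines PBS, circles SHAM and squares SCI, and open symbols have a Cp beyond 32. Of the miRNAs drawn, miR-206 crossed from below to above the PBS pools and 5 moved further above them. miR-150-5p fell from within the PBS range at D2 to below it at D4. For miR-126-3p, CDTX + SHAM D2 lay just below that range, CDTX + SCI D2 within it and both D4 pools well below it.

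The Dnm3os transcript, an antisense RNA of connective tissue precursors, carries miR-199a and miR-214, and all 5 measured members of the list that also holds miR-199b-5p were called higher, with a median of 0.94 against 0.14 over all 129 miRNAs, of which 14.7% were called higher. Without CDTX + SHAM D2 only the call of miR-199a-5p remained of the 5, without CDTX + SHAM D4 none did, and without either CDTX + SCI pool all 5 did. miR-199a-5p, which the study counts as osteogenic, had levels of -3.90 and -4.14 at D2 and of -2.14 and -2.89 at D4. The D4 pools exceeded both D2 pools, and the ratio was 1.5 ± 0.31 (adjusted p = 8.41e-05). The other arm, miR-199a-3p, counted as osteo-suppressive, had -1.51 and -1.92 at D2 and -0.31 and -1.24 at D4, a ratio of 0.94 ± 0.29 (adjusted p = 0.0105).

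miR-214-3p, known for targeting Atf4 in mouse osteoblasts, had levels of -1.60 and -1.99 at D2 and of -0.22 and -1.56 at D4. The CDTX + SCI D4 pool lay just above the CDTX + SHAM D2 pool, and the 2 days barely separated. The ratio of miR-214-3p was 1.38 in the SHAM pair and 0.42 in the SCI pair, with a mean of 0.90 ± 0.29 (adjusted p = 0.0129), and its second assay gave a mean of 1.06. Each of the 5 members had the higher ratio in the SHAM pair. The median over them was 1.40 in SHAM and 0.55 in SCI, and the difference between the surgeries has no replicate and was not tested. Their summed linear level went from 0.877 to 2.24 in SHAM and from 0.696 to 1.07 in SCI, with 0.323 to 0.443 in the PBS pools.

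The miRNAs in introns of Clcn5 on the X chromosome, were called higher in all 3 measured members, with a median of 1.46 (14.7% of all tested were called higher). Without either CDTX + SHAM pool 1 of these calls remained, that of miR-532-5p, and without either CDTX + SCI pool all 3 remained. miR-532-5p had levels of -3.87 and -4.69 at D2 and of -2.52 and -3.0 at D4, a ratio of 1.52 ± 0.31 (adjusted p = 8.41e-05), and its second assay gave 1.40. miR-532-3p had -4.72 and -4.66 at D2 and -2.92 and -3.54 at D4, a ratio of 1.46 ± 0.32 (adjusted p = 0.000269). In both miRNAs every D4 pool exceeded every D2 pool. miR-362-3p had -5.28 and -5.36 at D2 and -3.81 and -4.52 at D4, a ratio of 1.15 ± 0.35 (adjusted p = 0.0105).

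Members of this cluster that were too low for the fit at D2 came up at D4. miR-188-5p went from a Cp of 33.31 and 33.21 to 29.85 and 29.96, or by 3.46 and 3.25 cycles. miR-362-5p went from 32.90 and 34.61 to 31.09 and 31.72. miR-501-3p and miR-501-5p, detected in 1 D2 pool each, came 1.54 to 2.66 cycles earlier at D4. Of 9 assayed members, 3 were called, 2 were newly detected, 2 were detected in 1 D2 pool, and 2 were not detected in both pools of either day.

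The cluster of miR-322 and miR-503, also X-linked and known in mouse myoblasts for slowing the cell cycle as they differentiate, was mostly below the detection limit at D2. miR-503-5p went from 32.41 and 32.54 to 29.62 and 29.87, and miR-351-5p from 31.83 and 32.32 to 28.70 and 28.64. They came 2.79 and 2.67 and 3.13 and 3.68 cycles earlier, respectively, and the 2 D4 pools lay close together. miR-322-3p and miR-450a-5p were newly detected as well, by 0.54 to 2.16 cycles. The measured strand, miR-322-5p, had levels of -2.38 and -2.10 at D2 and of -1.46 and -1.62 at D4, a ratio of 0.70 that did not pass the test (adjusted p = 0.0721). The family that shares its seed was spread around zero, from -0.60 for miR-195-5p to 0.15 for miR-15b-5p, and none of the 5 measured miR-15/16 members was called.

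The imprinted Dlk1-Dio3 region, active in embryonic and regenerating muscle, supplied 2 calls among 9 measured members, where 14.7% of all miRNAs tested were called higher, and 6 of the 20 newly detected miRNAs, with 67 of the 688 assayed. Neither call remained without a CDTX + SHAM pool, and 1 remained without a CDTX + SCI pool (miR-127-3p). miR-127-3p, processed from the antisense strand of Rtl1, had levels of -4.07 and -4.21 at D2 and of -2.37 and -3.71 at D4, a ratio of 1.10 ± 0.31 (adjusted p = 0.00689). miR-379-5p had -5.33 and -5.72 at D2 and -4.35 and -4.63 at D4, a ratio of 1.03 ± 0.36 (adjusted p = 0.0207). At D2 miR-379-5p lay below the PBS pool of the same surgery (-0.38 and -0.42), while miR-127-3p was close to it (-0.14 and -0.03). The D4 pools of both lay above their PBS pools. The other 7 measured members ranged from -0.51 for miR-434-3p to 0.77 for miR-434-5p. miR-134-5p, miR-376a-3p, miR-376c-3p, miR-410-3p, miR-431-5p and miR-541-5p were newly detected, with Cp values of 30.59 to 31.89 at D4, and 52 of 67 assayed members were not detected in both pools of a day.

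Of the remaining miRNAs called higher, miR-149-5p was the only one besides miR-1-3p that stayed below the PBS pools on both days. Its level was -3.84 and -4.04 at D2 and -2.88 and -2.97 at D4, with -2.82 to -2.50 after PBS, a ratio of 1.01 ± 0.31 (adjusted p = 0.0105). miR-455-3p, hosted by the collagen gene Col27a1, had a ratio of 1.14 and miR-130a-3p one of 1.09, each with its 2 D4 pools above its 2 D2 pools. miR-1900 had levels of -6.46 and -6.35 at D2 and of -3.98 and -5.68 at D4, so that its ratio of 1.57 averages 2.48 in SHAM with 0.66 in SCI. miR-25-3p likewise averaged 1.64 with 0.19, and miR-92a-3p, with the same seed, had -0.14 and -0.69. The rest of the miR-17/92 clusters, which drive proliferation, had no call among the other 8 measured members, whose ratios were -0.41 to 0.54.

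**Figure D3:**
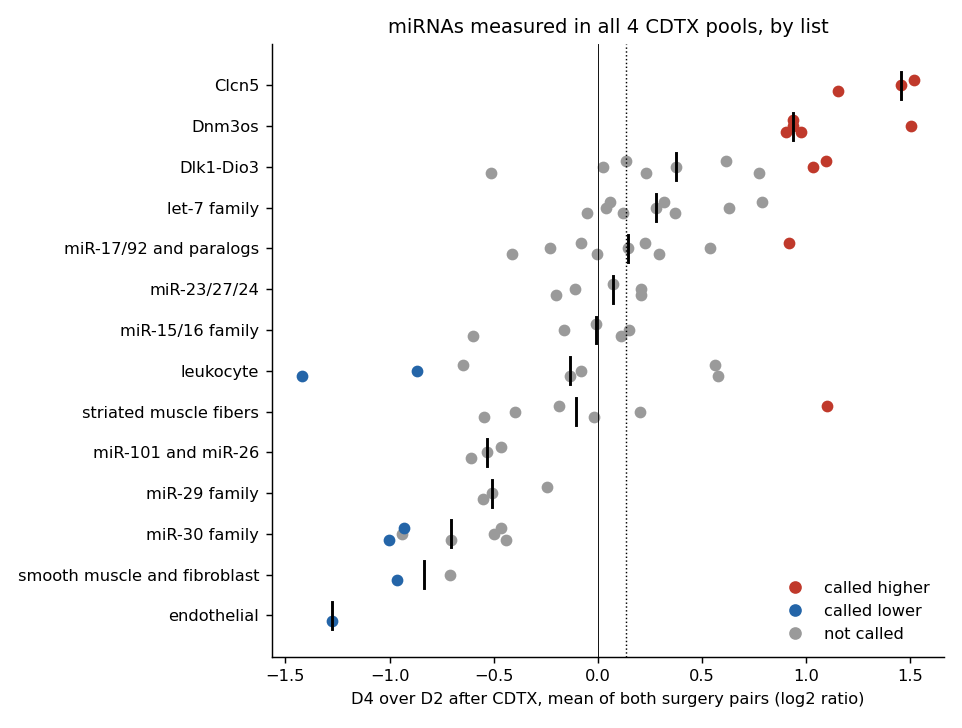
Mean log2 ratio of D4 over D2 (horizontal axis) of each miRNA measured in all 4 CDTX pools, by list of related miRNAs (vertical axis). Points are miRNAs, coloured by the limma call, black bars are the list medians and the dotted line is the median of 0.14 over all 129. The Clcn5 and Dnm3os lists lie wholly among called rises, and the miR-30 list lies wholly below 0.

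Among the miRNAs that fell, miR-150-5p, typical of mature lymphocytes, had levels of -2.21 in both D2 pools and of -3.68 and -3.57 at D4. The D2 values lay within 0.22 of the PBS pools and the D4 values 1.40 to 1.70 below them. The log2 ratio was -1.42 ± 0.30 (adjusted p = 0.000118), a 2.67-fold drop.

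miR-126-3p, the endothelial miRNA of the Egfl7 gene that sustains VEGF signalling, had a like course. Its level was 0.24 and 0.54 at D2 and -0.94 and -0.83 at D4, while the PBS pools lay between 0.31 and 0.65. CDTX + SCI D2 lay within that range, CDTX + SHAM D2 just below it and both D4 pools well below it. The log2 ratio was -1.28 ± 0.29 (adjusted p = 0.000351).

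miR-145-5p, of smooth muscle, had -0.64 and -0.27 at D2 and -1.44 and -1.39 at D4, a ratio of -0.96 ± 0.29 (adjusted p = 0.0100). Its cluster partner miR-143-3p had a ratio of -0.71 that did not pass the test (adjusted p = 0.0647). Both D4 pools of miR-143-3p, at -1.77 and -1.88, were nevertheless below both D2 pools, at -1.20 and -1.04. The part of the smooth muscle and endothelial markers in the other changes was not tested.

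The leukocyte list was divided. miR-223-3p, of neutrophils and other myeloid cells, had levels of 0.62 and 0.22 at D2 and of -0.54 and -0.35 at D4, when it was still above the PBS pools of the same surgery by 3.27 and 3.07. Its ratio was -0.87 ± 0.29 (adjusted p = 0.0182). Of 7 measured leukocyte miRNAs, 2 were called lower (miR-150-5p and miR-223-3p) and none higher, against 6.2% lower and 14.7% higher over all tested. Without either CDTX + SHAM pool the call of miR-223-3p was lost. miR-142-3p, common to blood cells, had a ratio of -0.08 (95% CI -0.69 to 0.52 by the fit), and miR-146a-5p and miR-342-3p had ratios of 0.58 and 0.56 without a call. Also uncalled were miR-146b-5p, with -0.65, and miR-142-5p, with -0.13. In both pairs 3 of the 7 had negative ratios and 2 had positive ones. The summed linear level of the list was 3.29 and 2.30 at D2 and 1.92 and 1.95 at D4, against 0.439 to 0.475 after PBS, and its part in the other changes was not tested. Of lineages foreign to the muscle, miR-122-5p of liver, 11 of 11 epithelial assays and 5 of 6 neuronal assays, miR-124-3p and miR-9-5p among them, were not detected in both pools of either day. The sixth neuronal assay, miR-128-3p, was newly detected at D4 and was detected in all 4 PBS pools.

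The miR-30 family, abundant in resting muscle, had 2 of 7 measured members called lower, against 6.2% over all tested, and all 7 had negative ratios in both pairs, with a median of -0.70. miR-30c-5p had levels of -1.55 and -1.50 at D2 and of -2.52 and -2.38 at D4, a ratio of -0.93 ± 0.29 (adjusted p = 0.0115). miR-30a-5p had -4.35 and -3.89 at D2 and -5.20 and -5.04 at D4, a ratio of -1.0 ± 0.34 (adjusted p = 0.0201). Without either CDTX + SCI pool the call of miR-30a-5p was lost. Both miRNAs were below their PBS pools at D2 already and further below at D4, by 2.03 to 2.88. The other 5 ranged from -0.94 for miR-30a-3p to -0.44 for miR-30b-5p. Over all 129 miRNAs 40 had negative ratios in both pairs.

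miR-10b-5p, encoded within the Hoxd cluster, had levels of -3.96 and -3.62 at D2 and of -5.02 and -4.66 at D4, and its ratios of -1.06 and -1.05 were almost equal. The mean was -1.05 ± 0.33 (adjusted p = 0.0129). miR-338-3p had the lowest ratio, -1.44 ± 0.37 (adjusted p = 0.00229), from -4.32 and -5.30 to -6.23 and -6.26. It also dropped by 0.63 and 1.13 between the PBS pools of D2 and D4, and its PBS and CDTX ratios did not differ by the test described below.

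The 3 members of miR-29, of miR-101 with miR-26, and miR-221-3p and miR-222-3p had no call, nor had the 9 measured let-7 miRNAs, whose ratios ran from -0.05 to 0.79. let-7f-5p could not be measured, since its Cp was 35.82 in CDTX + SHAM D2 and 27.12 to 27.71 in the other 3 CDTX pools. The study followed 15 miRNAs in individual muscles, which it chose partly on these pools. Of these, 5 were called higher (miR-206, miR-199a-5p, miR-1-3p, miR-199a-3p and miR-214-3p) and miR-223-3p lower. Over all tested, 14.7% were called higher and 6.2% lower. The 2 pairs of miR-1-3p disagreed, with ratios of 2.71 in SHAM and -0.51 in SCI. The osteogenic miR-21-5p had levels of 1.84 and 1.27 at D2 and of 2.21 and 2.03 at D4, a ratio of 0.56 (adjusted p = 0.231). miR-20a-5p, with -0.08, and miR-17-5p, with 0.15, had ratios of opposite sign in the 2 pairs.

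Detection by the limit of Cp 32 changed for 22 miRNAs, of which 20 were detected in both pools at D4 and in neither at D2, and 2 in both at D2 and in neither at D4. The clearest was miR-298-5p, at 35.07 and 34.41 at D2 and at 30.27 and 30.44 at D4. miR-483-3p, from an intron of Igf2, went from 34.55 and 35.65 to 29.84 and 31.05. miR-335-3p, from the imprinted gene Mest, went from 32.30 and 32.81 to 28.75 and 30.48.

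Other miRNAs crossed the limit by little. Of the 20, 12 came at least 1 cycle earlier in both pairs and 8 did not in at least 1 pair, among them miR-28a-3p, at 32.31 and 32.27 and then at 31.64 and 31.97. A separate assay named for human miR-28-3p, which matches the same RefSeq miRNA, was detected in CDTX + SHAM D2 already, at 31.94, so that miR-28a-3p is newly detected by its mouse-named assay only. miR-33a-5p, from an intron of the sterol regulator gene Srebf2, went from 32.60 and 32.72 to 30.88 and 30.48. miR-296-5p went from 32.16 and 32.18 to 30.52 in both D4 pools, and miR-128-3p, known from neurons, from 33.28 and 32.20 to 31.40 and 31.27. miR-1983 had no signal before cycle 36 in CDTX + SCI D2 and 32.83 in CDTX + SHAM D2, and came at 30.59 and 31.11 at D4. The rest have been named above with their clusters. In the PBS pools 11 of the 20 had a Cp beyond 32 in all 4 pools, and 4 were detected in all 4. The lost miRNAs were miR-706, at 30.39 and 31.18 and then at 32.01 and 32.65, and miR-138-5p, at 31.64 and 31.91 and then at 32.55 and 32.05. Both ended less than 1 cycle beyond the limit, after a move of 1.62 and 1.47 cycles for miR-706 and of 0.91 and 0.14 for miR-138-5p.

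Whether these were changes of the injured muscle or of any muscle over the same days was asked by setting the CDTX ratio against the PBS ratio in 1 fit of all 8 pools, with 2 residual degrees of freedom and 116 miRNAs detected throughout. After PBS no miRNA was called between D2 and D4 by limma (0% of 116), and 1 had an unadjusted p under 0.05. The CDTX ratio exceeded the PBS ratio for 5 miRNAs (4.31%) and was lower for 3 (2.59%). miR-206 differed by 2.59 ± 0.28 (adjusted p = 4.85e-05), miR-34a-5p by 1.92 ± 0.42 (adjusted p = 0.0197), miR-362-3p by 1.61, miR-379-5p by 1.42 and miR-199a-3p by 1.01. In the other direction stood miR-150-5p, by -1.45 ± 0.28 (adjusted p = 0.00965), miR-126-3p, by -1.08 ± 0.25 (adjusted p = 0.0206), and miR-145-5p, by -0.95. miR-532-5p, miR-199a-5p and miR-10b-5p missed the threshold, with adjusted p of 0.0513, 0.0519 and 0.0519. miR-338-3p, with a difference of -0.56, had an adjusted p of 0.406. These calls moved with single pools and with the reference. Leaving out 1 pool gave 1 to 13 higher and 0 to 4 lower, and the other references gave 1 to 8 higher and 0 to 15 lower. They numbered 2 and 0 without PBS + SHAM D2 or PBS + SHAM D4, 1 and 1 without PBS + SCI D2 or PBS + SCI D4, 2 and 4 without either CDTX + SHAM pool, and 13 and 4 without either CDTX + SCI pool.

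**Figure D4:**
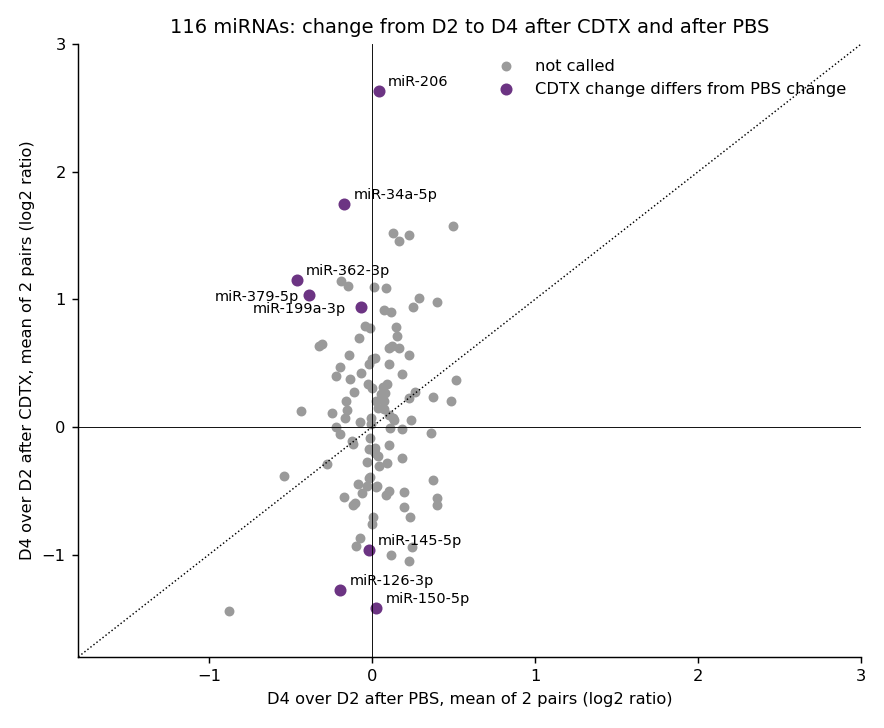
Mean log2 ratio of D4 over D2 after PBS (horizontal axis) and after CDTX (vertical axis) for the 116 miRNAs detected in all 8 pools. Each point is 1 miRNA, purple points are the 8 whose 2 ratios differed in limma, and the dotted line marks equal ratios. The cloud is drawn out along the CDTX axis and narrow along the PBS axis.

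Set against the PBS pool of the same surgery and day, the 19 rises took different courses. Of these, 11 stood above PBS in both surgeries at D2 and again at D4, among them all 5 of the Dnm3os list and the 3 of Clcn5. 3 went from below PBS to above it (miR-206, miR-127-3p and miR-379-5p), 2 stayed below (miR-1-3p and miR-149-5p), 2 were mixed at D2 and above at D4 (miR-455-3p and miR-25-3p), and miR-31-5p had no PBS level. These sides go by sign alone, and some margins were small. At D2 miR-206 stood at -1.14 and -1.58 against PBS and miR-379-5p at -0.38 and -0.42, but miR-127-3p at -0.14 and -0.03. Of the 8 falls, 5 stood below PBS on both days, miR-150-5p and miR-338-3p were mixed at D2 and below at D4, and miR-223-3p was above throughout. Among the 5, miR-126-3p was close to PBS at D2, at -0.41 and -0.04.

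SHAM and SCI ratios differed most for miR-1-3p, by -3.22 (SCI minus SHAM), followed by miR-1900 (-1.82), miR-25-3p (-1.45), miR-328-3p (-1.41) and miR-574-3p (-1.29). At the other end were miR-338-3p (0.94), miR-101b-3p (0.83), miR-142-5p (0.77), miR-15a-5p (0.72) and miR-221-3p (0.66). Each of these differences is of 4 single pools and has no test. Of the 19 rises, 14 had the larger ratio in the SHAM pair, as had 79 of all 129 miRNAs. The SCI pair had the larger rise for miR-206, miR-34a-5p, miR-532-5p, miR-379-5p and miR-149-5p. For miR-532-5p this order depends on the assay, since its second assay gave 1.72 in SHAM and 1.08 in SCI.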

How the data were processed

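Total RNA of mouse gastrocnemius was profiled by RT-qPCR on miRNome panels. The authors deposited Cp values without normalization, in cycles, and a second table of the ratio of each miRNA to reference miRNAs within a pool. On the values, this deposited ratio has as its reference the average Cp of 4 miRNAs (miR-125b-5p, miR-24-3p, miR-23a-3p and miR-16-5p). Another table holds the authors' comparisons of each pool with PBS + SHAM D2 and was not used. A Cp of 36 is the highest recorded and stands for no signal, which held for 351 to 380 miRNAs in the CDTX pools. The genome build behind the authors' assays is not given in the sources used here.

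3 assays not of a miRNA were left out. For a miRNA with several assays the mouse-named one was used, otherwise that with the earlier mean Cp. Relative expression used the 3 references of the methods. limma 3.58.1 (R 4.3.3) was fitted over 4 CDTX pools (surgery + day) and over all 8 pools (surgery and day within injection), with an intensity trend and Benjamini-Hochberg adjustment at 0.05. The 4-pool fit was also run on simulated data with equal, independent noise for every miRNA and the same change in both pairs. That run cannot show how the calls hold where the pairs disagree. With 1 pool per condition there is no spread between replicate pools. The error behind each p-value is the disagreement of the SHAM and SCI day ratios within an injection, shared between miRNAs. A day change that SCI alters thus adds to this shared error. In the 4-pool fit, with infinite prior degrees of freedom, it enters the test of its own miRNA through the trend alone. Day cannot be told apart from anything else particular to a pool. Named were the 12 highest and 12 lowest called miRNAs of 1 sign in both pairs, every newly detected or lost miRNA, called members of the lists, the 15 miRNAs the study followed, and the 5 highest and 5 lowest differences between surgeries. Uncalled list members given by name as ends of a range, miR-351-5p, miR-501-3p, miR-501-5p and let-7f-5p fall outside this rule and were chosen after their values were seen. The members and lists were chosen with earlier results of these data known. Alternatives were 5 other references, other Cp limits, models, thresholds and pools left out. Sequences were matched by name to RefSeq miRNAs for 106 of the 129 miRNAs.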

Additional observations from a re-analysis of the deposited data

Results flagged for a closer look

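The D4 over D2 change after CDTX differed from that after PBS, by the limma test of the difference itself, for 8 miRNAs. The differences in log2 ratio were 2.59 for miR-206, 1.92 for miR-34a-5p, 1.61 for miR-362-3p, 1.42 for miR-379-5p, 1.01 for miR-199a-3p, -0.95 for miR-145-5p, -1.08 for miR-126-3p and -1.45 for miR-150-5p.

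Considered here were the called miRNAs, the 15 followed by the study and the 5 highest and 5 lowest differences between surgeries. Among these, the SHAM and SCI pairs moved in opposite directions for 9, a difference that was not tested. Opposite directions were not particular to this set, since over all 129 miRNAs the sign was the same in both pairs for 90. Of the 9, miR-328-3p, miR-574-3p, miR-221-3p, miR-15a-5p and miR-142-5p entered the set only because their difference between surgeries was among the highest or lowest. The SCI minus SHAM difference of the log2 ratio was -3.22 for miR-1-3p, -1.41 for miR-328-3p, -1.29 for miR-574-3p, 0.27 for miR-142-3p, 0.51 for miR-20a-5p, 0.63 for miR-17-5p, 0.66 for miR-221-3p, 0.72 for miR-15a-5p and 0.77 for miR-142-5p.

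The 3 assays of small nuclear RNAs, which no comparison used, came earlier at D4 than at D2 after CDTX and by less, or later, after PBS. RNU1A1 came 1.86 cycles earlier in SHAM and 1.89 in SCI, U6 snRNA 2.21 and 3.42, and RNU5G 0.65 and 0.29. After PBS the 3 assays moved by between -1.32 and 0.02 cycles, while the mean Cp of the 3 reference miRNAs after CDTX was 25.54 and 25.61 in SHAM and 25.51 and 25.22 in SCI, at D2 and D4.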

How the results depend on the processing

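Another reference moves every log2 ratio by 1 constant per pair, on average by -0.21 (miR-24-3p alone) to 0.28 (miR-125b-5p alone). With the main reference 19 miRNAs were called higher and 8 lower at D4, 6 and 3 changed at least 2-fold in both pairs, and 5 and 3 differed from PBS. These 3 pairs of counts were 16 and 13, 6 and 6, and 3 and 4 with the global mean Cp, 12 and 14, 5 and 8, and 3 and 6 with miR-24-3p alone, 19 and 10, 6 and 4, and 7 and 15 with miR-23b-3p alone, 23 and 5, 12 and 1, and 8 and 0 with miR-125b-5p alone, and 8 and 4, 8 and 2, and 1 and 0 with the deposited normalized values. Called under the main and all 5 other references were 11 miRNAs: miR-206, miR-31-5p, miR-34a-5p, miR-532-5p, miR-532-3p, miR-199a-5p, miR-149-5p, miR-150-5p, miR-126-3p, miR-145-5p and miR-30c-5p. Every call kept its direction under these references. Of the 102 uncalled ratios, 7 to 19 changed sign with another reference. Among the 15 miRNAs followed by the study these were miR-17-5p (-0.0014 with the global mean, -0.060 with miR-24-3p alone), miR-142-3p and miR-20a-5p (0.20 each with miR-125b-5p alone, 0.0025 each with the deposited values).

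With a Cp limit of 30 the counts were 8 and 5, 2 and 2, and 2 and 6, with 34 they were 38 and 12, 19 and 5, and 7 and 5, and under 36 they were 43 and 13, 29 and 9, and 3 and 0. The CDTX day ratio in the 8-pool fit gave 20 and 13 calls and the fit without surgery as a block 8 and 7. Without trend, with a robust prior, with all assays, without the references and at an adjusted p under 0.1, both counts stayed within 1.5 times. At 1.5-fold 15 and 8 miRNAs changed in both pairs, and at 3-fold 2 and 0. At a limit of 30, 16 miRNAs were newly detected and 1 lost, and under 36, 13 and 2.

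Leaving out 1 CDTX pool gave 5 to 22 called higher and 8 to 9 lower, the low counts of rises both without a CDTX + SHAM pool. The error then comes from the PBS pools alone and is assumed to hold for CDTX. The SHAM pair alone had 21 and 5 miRNAs at least 2-fold changed and the SCI pair alone 8 and 11. For the difference from PBS, leaving out 1 pool gave 1 to 13 higher and 0 to 4 lower. miR-1-3p was 2.71 in the SHAM pair alone and -0.51 in the SCI pair alone. The causes of these moves were not tested. No paired analysis by replicate was possible because each condition holds 1 pool. The pools have no replicate, their RNA is of 3 muscles, and levels near the Cp limit are the least certain.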
